A study of Mus musculus with 4 samples.

Results

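Rab GTPases are the largest branch of the Ras-like small GTPases and give each membrane compartment of a cell its identity. A Rab is held in the cytosol with GDP by a dissociation inhibitor, is switched on at its membrane by an exchange factor, recruits effectors such as tethers and motors, and is switched off by a GTPase-activating protein. In myeloid cells several of them serve the storage and release of granules, of which Rab27a, Rab27b, Rab3d, Rab37 and Rab44 are examples, and others serve phagosomes and lysosomes. The family was taken as all rows whose symbol is Rab followed by a number and at most a letter and a digit, which gave 59 of the 24497 mouse entries in the table. Rab-like genes, Rab effectors and antisense genes with longer symbols were left out by that rule.

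The data were RNA-seq values from 4 libraries of mouse acute myeloid leukemia cells, which carried NRAS and AML1-ETO9a (AE9a), a truncated form of a leukemia fusion protein. The WT group (n = 2) came from bone marrow hematopoietic stem cells of wild-type mice and the Tet2 KO group (n = 2) from those of Tet2-/- mice, in which exons 8 to 10 of Tet2, a dioxygenase that oxidises 5-methylcytosine, were missing. All 4 cultures were grown with SCF (50 ng/ml), IL-3 and IL-6 (10 ng/ml each), G418 (1 mg/ml) and puromycin (2 µg/ml). The labels give no age or sex and do not say whether replicates are separate cultures or animals, so p-values weigh a difference only against the variation among these 4 libraries, part or all of which may be technical.

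Tet2 transcript was present at 35.0 and 40.0 TPM in WT and 53.5 and 52.8 TPM in Tet2 KO. A value for the whole gene does not check a deletion of exons 8 to 10, and every direction here is drawn between libraries by their labels. TPM express transcript abundance corrected for length and scaled to one fixed total per library, and they keep no read depth. The pan-leukocyte gene Ptprc stood at 182 to 211 TPM and the myeloid enzyme gene Mpo at 731 to 1037 TPM. Of 12 lymphoid markers, 3 (Cd3e, Ms4a1 and Ncr1) were listed at 0 in all 4 libraries. Others were present, such as Thy1 at 80.8 to 141.9 TPM and Nkg7 at 37.1 to 60.6 TPM. Replicates of a group correlated across genes at 0.992 (Pearson's r), and libraries of different groups at 0.979 to 0.982. The 45S pre-ribosomal RNA entry ranged from 4350 to 14263 TPM, highest in replicate 1 of Tet2 KO.

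Of the 59 Rab genes, 49 reached at least 1 TPM in at least 2 libraries and were tested. The comparison asks which of them differ with the Tet2 label. In limma's moderated test, at an adjusted p under 0.05 over all 11837 genes tested, 4 Rab genes were higher in Tet2 KO, 6 were lower and 39 were not called. That is 20.4% called, beside 30.5% of all genes (18.9% higher and 11.6% lower). Their median log2 change was -0.03, beside 0.04 over all genes tested. Groups did not overlap for 26 of the 49 (53.1%), beside 68.6% of all genes, so both shares were below those of all genes, a difference that was not tested. The share called was below that of all genes in 13 of 16 alternatives and above it in 3. These were spike-in scaling (20.4% against 17.9%), leaving out Tet2 KO replicate 1 (12.5% against 10.6%) and leaving out Tet2 KO replicate 2 (12.2% against 11.03%). Without WT replicate 1 or 2 there were 3 and 4 higher and 4 and 4 lower Rab genes, and without Tet2 KO replicate 1 or 2 there were 3 higher and 3 lower in each case, while the calls over all genes fell to 637 higher and 602 lower and to 628 and 660. Trimmed-mean scaling gave 4 higher and 10 lower Rab genes. A log2 change beyond 0.5 in either direction was found in 3 of the 49 (6.12%) and in 8.72% of all genes. Here and below a log2 change is Tet2 KO minus WT on the scale of log2(TPM + 1), which understates changes of low genes.

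The higher genes were Rab27b, Rab38, Rab37 and Rab10, and the lower genes were Rab15, Rab32, Rab19, Rab27a, Rab7 and Rab35. The members with the largest changes belonged to granules, lysosome-related organelles and recycling endosomes. Called were 50% of the 6 tested Rabs of regulated secretion and 37.5% of the 8 of late endosomes, lysosomes and phagosomes. For recycling endosomes and exocytosis it was 33.3% of 9, beside 30.5% of all genes. None of the 11 Rabs placed with early endosomes and fast recycling was called, while Rab15 and Rab35 were placed with recycling endosomes. The roles were assigned with earlier results of these data known, and no test over a class was run. Summed over all 59 genes, the level was 3154 and 3284 TPM in WT and 3144 and 3181 TPM in Tet2 KO, so the groups overlapped in total Rab transcript. Rabs of regulated secretion made up 19.4% and 18.9% of that sum in WT and 20.2% and 20.7% in Tet2 KO. That difference rested on Rab44, which was not called: without it these Rabs summed to 222 and 224 TPM in WT and to 215 and 214 TPM in Tet2 KO. Rabs of late endosomes, lysosomes and phagosomes made up 18.0% in each WT library and 16.7% in each Tet2 KO library. That difference rested on Rab7 and Rab32. In the same class Rab38 was higher and 5 tested members were not called.

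**Figure D1:**
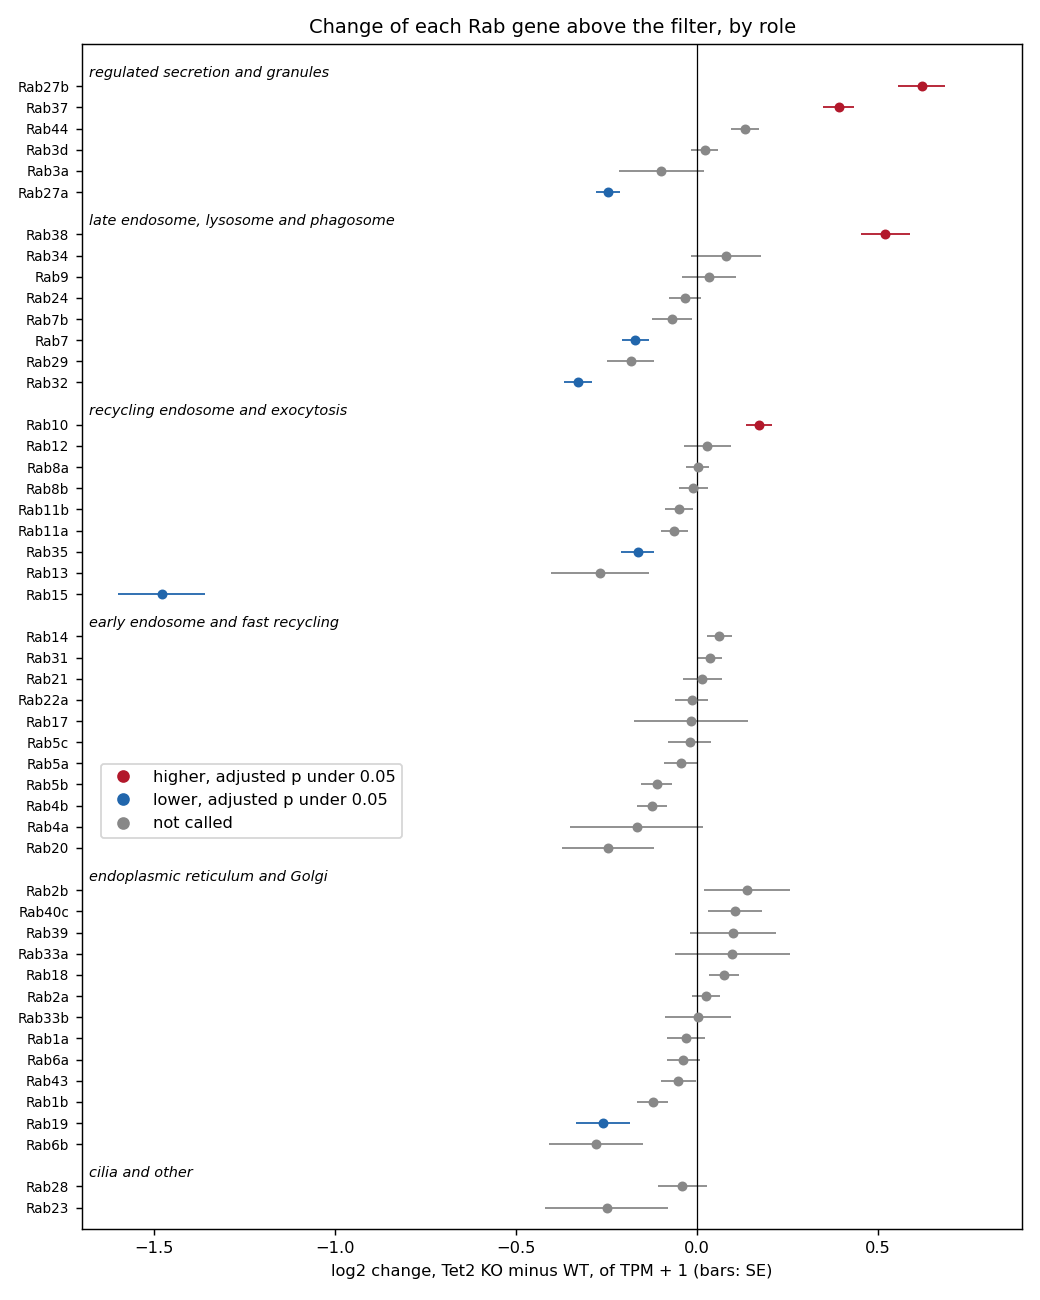
Log2 change (Tet2 KO minus WT, horizontal axis, of TPM + 1) of the 49 tested Rab genes, grouped by role, with bars for the standard error of limma's fit (n = 2 per group). Red points passed as higher, blue as lower and grey were not called; Rab15 stands apart at -1.48 and most other members lie within 0.5 of 0.

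Tet2 acts on methylated cytosine, which in mammals lies mostly in CG dinucleotides, so the CG content of the promoters is shown for the called members with an entry in the RefSeq promoter table (GRCm38.p6), which is the build named by the submitters (mm10). The table held 48 of the 59 members. Rab27b, Rab38, Rab37 and Rab44 had no entry. Shown are the largest falls, Rab15 and Rab32, with Rab27a, the relative of Rab27b, and Rab10, the only higher member with an entry, each read 5′ to 3′ on the gene's strand within 250 bases before the most upstream start in the RefSeq table, without bases that GENCODE counts as exons of the gene. GENCODE has a Rab15 transcript that starts further upstream, at 76822908, so the stretch of Rab15 lies within an intron of that transcript. Capitals mark CG dinucleotides. DNA methylation was not measured here.
Rab15, chr12:76822554-76822774, minus strand: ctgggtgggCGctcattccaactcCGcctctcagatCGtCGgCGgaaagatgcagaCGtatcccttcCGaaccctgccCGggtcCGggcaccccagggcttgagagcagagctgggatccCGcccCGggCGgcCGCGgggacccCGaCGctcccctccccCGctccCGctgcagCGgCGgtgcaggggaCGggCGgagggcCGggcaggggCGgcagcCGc
Rab32, chr10:10558266-10558457, minus strand: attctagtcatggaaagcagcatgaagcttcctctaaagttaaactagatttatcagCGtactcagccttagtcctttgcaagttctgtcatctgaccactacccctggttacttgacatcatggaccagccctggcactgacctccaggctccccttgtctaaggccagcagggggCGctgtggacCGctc
Rab27a, chr9:73044560-73044809, plus strand: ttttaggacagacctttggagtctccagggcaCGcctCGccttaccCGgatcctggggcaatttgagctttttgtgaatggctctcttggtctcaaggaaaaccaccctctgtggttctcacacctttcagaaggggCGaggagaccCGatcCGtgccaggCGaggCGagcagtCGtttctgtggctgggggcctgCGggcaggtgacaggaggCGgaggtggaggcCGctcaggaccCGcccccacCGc
Rab10, chr12:3309970-3310219, minus strand: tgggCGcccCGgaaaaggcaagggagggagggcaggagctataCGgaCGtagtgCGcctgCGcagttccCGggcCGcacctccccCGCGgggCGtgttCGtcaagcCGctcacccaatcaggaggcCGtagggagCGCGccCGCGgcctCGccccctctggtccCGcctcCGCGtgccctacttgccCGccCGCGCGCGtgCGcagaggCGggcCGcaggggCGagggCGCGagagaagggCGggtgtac

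The whole 250-base window held 27 CG in Rab15, 34 in Rab10, 14 in Rab27a and 5 in Rab32. Over the 48 matched Rab genes the median was 16 CG, from 3 in Rab17 and Rab42 to 40 in Rab6b. It was 6 in the same window of all 27025 genes of the table, which also holds genes not tested here. For the 7 matched Rab genes below the filter the median was 8. The 7 called members with an entry had a median of 14 CG and the 34 tested members that were not called a median of 18. Rab7, Rab19 and Rab35, the remaining called members with an entry, held 10, 6 and 39 CG. A link between CG content and the changes was not tested. The E-box CACGTG, searched on both strands, was in 4 of the 48 windows (Rab5a, Rab20, Rab21 and Rab23), or 8.33%, beside 6.04% of all windows, and in none of the 7 called members. These matches are letters in a window, not tests of binding.

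Rab27a and Rab27b are closely related Rabs that dock secretory granules at the plasma membrane through shared effectors. They went in opposite directions. Rab27a (chromosome 9, 73044854 to 73097629, GRCm38) stood at 134 and 136 TPM in WT and at 112 and 115 TPM in Tet2 KO. Both Tet2 KO libraries lay below both WT libraries, and the mean was 1.19-fold lower (135 ± 1.41 against 114 ± 2.07 TPM, SD, n = 2). The log2 change was -0.25 (SE 0.034, adjusted p = 0.0057 by limma). The Rab27a call was lost without replicate 1 of Tet2 KO (-0.23, adjusted p = 0.066). Rab27b (chromosome 18, 69979131 to 70141605) stood at 7.18 and 7.32 TPM in WT and at 12.1 and 11.3 TPM in Tet2 KO. Its groups did not overlap either, and its mean was 1.61-fold higher (7.25 ± 0.10 against 11.7 ± 0.52 TPM, SD, n = 2). This was a log2 change of 0.62 (SE 0.065, adjusted p = 0.0025 by limma). In absolute terms Rab27a remained the more abundant of the pair in every library. Rab27b made up 5.09% and 5.11% of the pair's TPM in WT and 9.71% and 8.96% in Tet2 KO.

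Rab32 and Rab38 are the Rabs of lysosome-related organelles, such as melanosomes and dense granules, and share the BLOC-3 exchange factor of Hps1 and Hps4. Rab32 (chromosome 10, 10545002 to 10558265) stood at 106 and 111 TPM in WT and at 87.1 and 85.9 TPM in Tet2 KO. All values of Rab32 in Tet2 KO were below those in WT, a 1.26-fold lower mean (109 ± 3.51 against 86.5 ± 0.81 TPM, SD, n = 2). The log2 change was -0.33 (SE 0.038, adjusted p = 0.0034 by limma). Rab38 (chromosome 7, 88430273 to 88491572) stood at 14.7 and 14.6 TPM in WT and at 22.8 and 20.3 TPM in Tet2 KO. Rab38 was thus higher in both Tet2 KO libraries, 1.47-fold in the mean (0.52, SE 0.068, adjusted p = 0.0048 by limma). Rab38 made up 12.2% and 11.6% of the pair's TPM in WT and 20.7% and 19.1% in Tet2 KO. The shared exchange factor was not called, with log2 changes of 0.04 for Hps1 (SE 0.054) and -0.01 for Hps4 (SE 0.075), nor was Sgsm2, which acts on both Rabs as a GTPase-activating protein or effector (-0.18, SE 0.082, adjusted p = 0.16 by limma). These partners were chosen after the values of the pair were seen.

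The ratio of the related members was computed per library for 15 pairs, listed after the values were seen. The ratio of Rab27b to Rab27a rose from 0.0536 and 0.0539 in WT to 0.108 and 0.0984 in Tet2 KO, a difference of 0.87 in its log2 (of TPM + 1). For Rab38 over Rab32 the ratio was 0.138 and 0.131 in WT and 0.262 and 0.236 in Tet2 KO, a difference of 0.85. In the other 13 pairs the difference lay between -0.24 (Rab6b over Rab6a) and 0.12 (Rab3d over Rab3a). With so few libraries the smallest two-sided p of an exact permutation test is 0.333, and 7 of the 15 pairs reached it, these among them. No other test of the ratios was run.

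**Figure D2:**
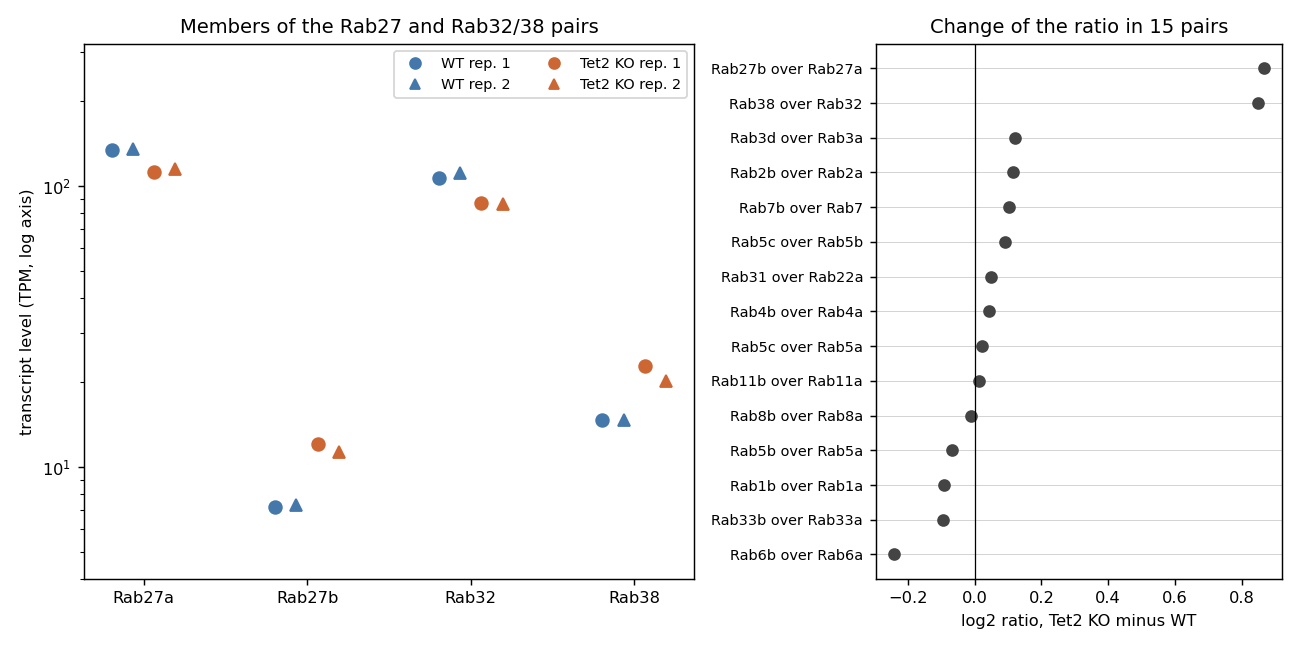
Left, TPM (log axis) of the Rab27 and Rab32/38 genes in each of the 4 libraries; right, the change of the log2 ratio (Tet2 KO minus WT, of TPM + 1) in 15 pairs of related Rabs. In the Rab27 and the Rab32/38 pair the abundant member was lower and the scarce member higher in Tet2 KO, and their log2 ratios changed by 0.87 and 0.85.

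Rab37, a Rab of mast cell secretory granules, was also higher. It stood at 24.9 and 24.6 TPM in WT and at 33.1 and 32.4 TPM in Tet2 KO. The groups were clearly apart, with a 1.33-fold higher mean (log2 change 0.39, SE 0.043, adjusted p = 0.0028 by limma). Rab37 (chromosome 11, 115091431 to 115162236) overlaps Cd300lf on the other strand, which went the other way (138 and 141 TPM in WT, 102 and 97.1 TPM in Tet2 KO). Rab44, a large Rab with an added EF-hand region that acts in mast cell exocytosis, was the most abundant member, at 391 and 398 TPM in WT and at 420.0 and 445 TPM in Tet2 KO. Its groups did not overlap, but the change narrowly missed the threshold (0.13, SE 0.039, adjusted p = 0.052 by limma), and it passed in 4 of 16 alternatives, at an adjusted p of 0.035 to 0.046 by limma. Rab3d, a Rab of mature secretory granules, stood at 50.3 and 49.4 TPM in WT and at 51.0 and 50.3 TPM in Tet2 KO, a log2 change of 0.02 (SE 0.038, adjusted p = 0.70 by limma). The range of its change over the 16 alternatives was -0.09 to 0.03, without a call. Rab3a stood at 4.74 to 6.05 TPM and was not called either. Rab26, Rab3b and Rab3c, which serve secretion in gland cells and neurons, stayed at or below 0.36 TPM in every library and were not tested.

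Rab15, a Rab that slows traffic from early to recycling endosomes, had the largest change of the family. It stood at 4.80 and 5.75 TPM in WT and at 1.32 and 1.17 TPM in Tet2 KO. The groups were far apart for a low gene, with a mean 4.24-fold lower (5.28 ± 0.67 against 1.25 ± 0.11 TPM, SD, n = 2). On the log2 scale it fell by 1.48 (SE 0.12, adjusted p = 0.0012 by limma). Rab15 (chromosome 12, 76797960 to 76822908) overlaps Fntb on the other strand, a subunit of protein farnesyltransferase that stood at 13.8 and 14.1 TPM in WT and at 16.2 and 16.3 TPM in Tet2 KO. The kit keeps the strand, but whether the counting used it is not given in the sources used here, so reads of Rab15 and Fntb, or of Rab37 and Cd300lf, may not have been told apart.

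Rab10, which serves exocytosis and the recycling of receptors to the surface, was higher, at 66.5 and 68.6 TPM in WT and 75.7 and 76.8 TPM in Tet2 KO (log2 change 0.17, SE 0.037, adjusted p = 0.022 by limma). Its call was lost without WT replicate 1 and without replicate 1 or 2 of Tet2 KO (adjusted p = 0.060, 0.12 and 0.14 by limma), with scaling to the spike-ins (0.06, adjusted p = 0.62 by limma) and without a variance trend (adjusted p = 0.058). Rab35, a Rab of fast recycling, was lower at 66.7 and 69.5 TPM in WT and 59.0 and 62.4 TPM in Tet2 KO (-0.16, SE 0.045, adjusted p = 0.046 by limma). The call of Rab35 did not hold without any of the 4 libraries (adjusted p = 0.060, 0.11, 0.24 and 0.10 by limma), nor with no variance trend, no filter, rescaling without spike-ins and 45S RNA, or a block that crosses the replicate numbers, added after seeing the data (adjusted p = 0.095, 0.079, 0.054 and 0.061). The other 6 tested members of this compartment were not called, with log2 changes from -0.06 for Rab11a to 0.03 for Rab12 among Rab8a, Rab8b, Rab11a, Rab11b and Rab12, and -0.27 (SE 0.14) for the low Rab13. Rab8a, which delivers vesicles to the plasma membrane, had the closest values of these, at 107 and 108 TPM in WT and 107.5 and 107.6 TPM in Tet2 KO.

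Rab7, the Rab of late endosomes and lysosomes, was the second most abundant member and was lower in Tet2 KO. It stood at 288 and 304 TPM in WT and at 264 and 261 TPM in Tet2 KO, without overlap (log2 change -0.17, SE 0.038, adjusted p = 0.023 by limma). The Rab7 call was lost without replicate 1 or 2 of Tet2 KO (adjusted p = 0.13 and 0.15 by limma) and without a variance trend (adjusted p = 0.074). Its relative Rab7b was not called, at 14.5 to 15.8 TPM. Neither were Rab9, which returns receptors from late endosomes to the Golgi (39.9 to 45.5 TPM), Rab24 (77.8 to 83.7 TPM), Rab29 (13.6 to 16.8 TPM; -0.18, SE 0.066, adjusted p = 0.089 by limma) or Rab34 (5.39 to 6.49 TPM). Rab29 passed under 3 alternative scalings. Rab42, listed at 0.11 and 0.28 TPM in WT and 0.54 and 0.84 TPM in Tet2 KO, Rab36 and Rab9b were below the filter.

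Among the 11 Rabs placed with early endosomes and fast recycling none passed. That count depends on the placement, since the called Rab15 and Rab35 were placed with recycling endosomes and exocytosis. Rab20, which was not called, was placed here although the class of late endosomes and lysosomes also covers phagosomes, so the share called in that class depends on the placement too. Rab5c, the third most abundant member and a master Rab of early endosome fusion, stood at 254 and 287 TPM in WT and 268 and 264 TPM in Tet2 KO, with the Tet2 KO values between those of WT (log2 change -0.02, SE 0.060, adjusted p = 0.83 by limma). Rab5a stood at 48.5 to 52.2 TPM, and Rab5b at 95.7 and 99.2 TPM in WT and 92.6 and 87.8 TPM in Tet2 KO (-0.11, SE 0.043, adjusted p = 0.11 by limma). Rab4b, a Rab of fast recycling, lay at 70.9 and 67.5 TPM in WT and below both of these at 62.5 and 64.4 TPM in Tet2 KO (-0.12, SE 0.042, adjusted p = 0.077 by limma). Rab4b and Rab5b passed as lower with trimmed-mean scaling alone (adjusted p = 0.043 and 0.040 by limma). Rab14 and Rab31 were higher in both Tet2 KO libraries than in either WT library, but by 0.06 and 0.04 and without a call. Rab20, a Rab of macrophage phagosomes, stood at 13.7 and 14.4 TPM in WT and 13.5 and 10.2 TPM in Tet2 KO, and passed only when replicate 1 of Tet2 KO was left out (-0.43, adjusted p = 0.044 by limma).

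Of the 16 Rabs of the endoplasmic reticulum and Golgi, 13 were tested and 1 was called. That was Rab19, at 6.06 and 6.28 TPM in WT and 5.07 and 4.90 TPM in Tet2 KO (log2 change -0.26, SE 0.075, adjusted p = 0.049 by limma), whose call did not hold without any of the 4 libraries (adjusted p = 0.11, 0.14, 0.14 and 0.18 by limma), nor with no filter, a filter at 5 TPM, rescaling without spike-ins and 45S RNA, the replicate block or the crossed block (adjusted p = 0.11, 0.066, 0.055, 0.081 and 0.074). Rab1a and Rab1b, which carry cargo from the endoplasmic reticulum to the Golgi, stood at 158 to 175 and 117 to 134 TPM. Rab1b lay lower in both Tet2 KO libraries (-0.12, SE 0.044, adjusted p = 0.088 by limma), and passed with trimmed-mean and quantile scaling, while Rab1a overlapped. Rab2a and Rab6a, which act in traffic at the Golgi, overlapped between groups as well, with log2 changes of 0.02 and -0.04. The remaining members below the filter were Rab25, Rab30, Rab39b and Rab40b, none above 0.76 TPM in any library.

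**Figure D3:**
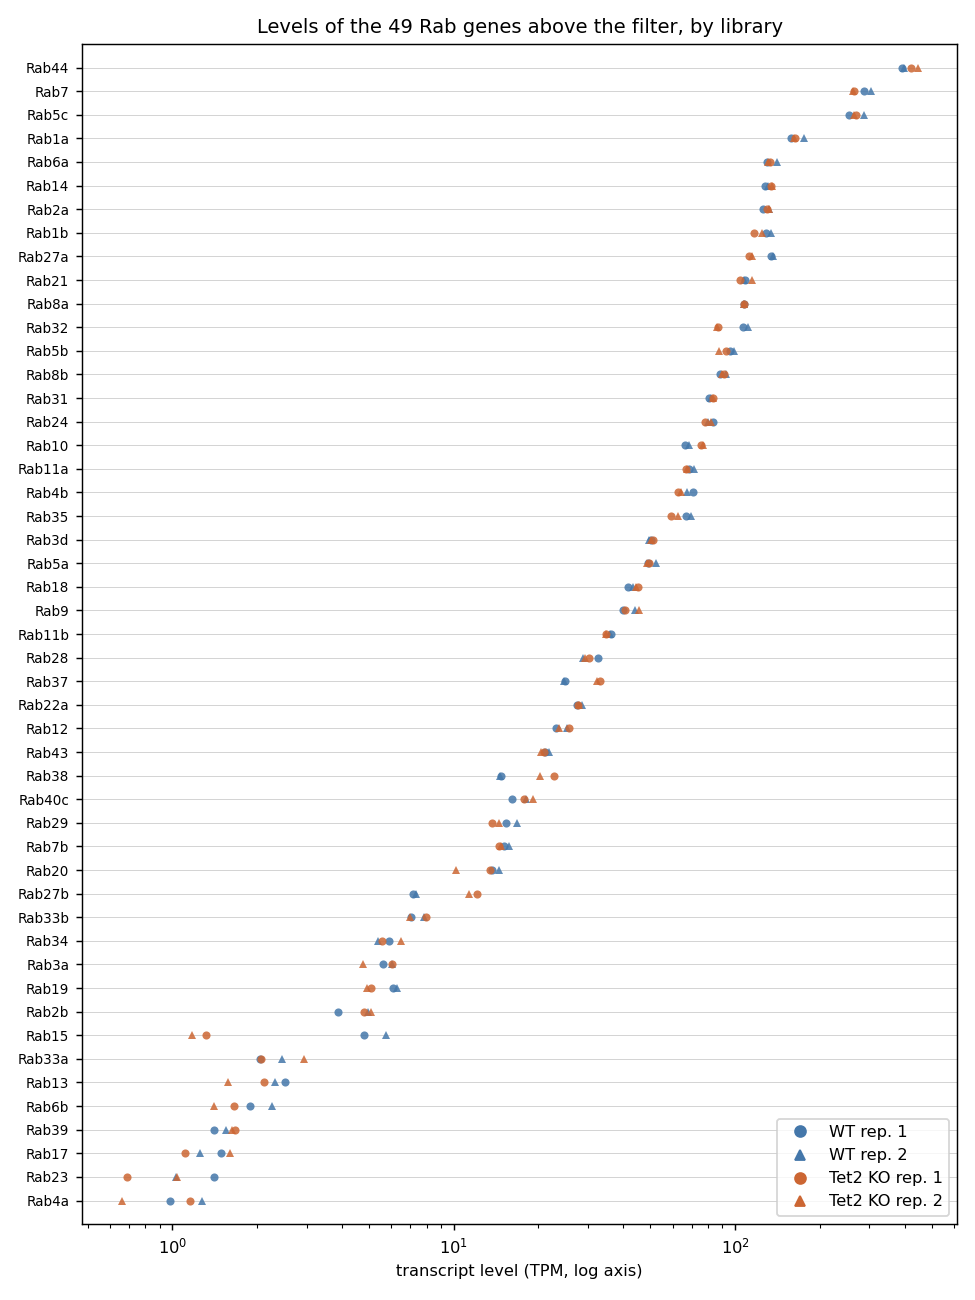
TPM (log axis) of the 49 tested Rab genes in each of the 4 libraries, ordered by mean level. Mean levels run from 1.02 TPM for Rab4a to 413 TPM for Rab44, and the symbols of the groups separate most widely for Rab15, Rab27b and Rab38.

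The machinery that loads, switches and reads the Rabs was followed in 6 lists of 147 genes, of which 146 were in the table: prenylation and membrane cycling, exchange factors, GTPase-activating proteins, effectors, Rab kinases with a phosphatase, and exocytic SNAREs with partners. Of these, 130 were tested, of which 26 were higher, 17 lower and 87 not called, with a median log2 change of 0.04, the same as over all genes. That is 33.1% called, beside 30.5% of all genes. With scaling to the spike-ins the counts were 3 higher and 21 lower of 129, beside 634 and 1485 of 11819 over all genes (17.9% called). Fewer of these genes were called whenever a library was left out, and so were fewer of all genes, most of all without a Tet2 KO library. Effectors had 9 higher and 8 lower of 37, GTPase-activating proteins 7 and 2 of 35, exchange factors 5 and 2 of 31, SNAREs and partners 3 and 4 of 16, membrane cycling 2 and 0 of 8, and the kinases and phosphatase 0 and 1 of 3.

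Rab3il1, an exchange factor related to Rabin8, which activates Rab8, had the largest change of all 130. It stood at 10.9 and 10.3 TPM in WT and at 3.37 and 3.57 TPM in Tet2 KO. The groups were wide apart, with a 3.05-fold lower mean (log2 change -1.37, SE 0.075, adjusted p = 3.7e-04 by limma), whereas Rab8a and Rab8b were not called. Lrrk2, the kinase that phosphorylates Rab8a, Rab10, Rab29 and other Rabs in their switch region, was lower at 50.3 and 48.0 TPM in WT and 34.5 and 34.9 TPM in Tet2 KO (-0.49, SE 0.043, adjusted p = 0.0015 by limma). The other falls of the first 6 were Erc1 (-0.46), an effector of Rab6, Tbc1d8 (-0.39), a TBC-domain protein, the SNARE Snap29 (-0.39) and the Rab5 exchange factor Rin2 (-0.36). Of these, Tbc1d8 kept its call without any 1 library, while Erc1 did not without WT replicate 1 (adjusted p = 0.080 by limma), and Erc1, Snap29 and Rin2 did not without Tet2 KO replicate 1 (adjusted p = 0.10, 0.051 and 0.058) or 2 (adjusted p = 0.067, 0.053 and 0.058).

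Among the largest rises was that of Sytl2, a synaptotagmin-like effector of Rab27, at 0.92 and 0.78 TPM in WT and 2.07 and 1.80 TPM in Tet2 KO (log2 change 0.67, SE 0.13, adjusted p = 0.017 by limma). Both WT values of Sytl2 were below the filter of 1 TPM, so it was tested only through the group where it is high, and it was not tested without either Tet2 KO library or with a filter at 5 TPM. Next came the TBC-domain gene Tbc1d31 (0.50, SE 0.048, adjusted p = 0.0020 by limma). Rabgap1l, a GTPase-activating protein (0.44), Chml, a Rab escort protein that presents Rabs for prenylation (0.39), and Eea1, the early endosome tether that binds Rab5 (0.33), followed. The calls of Rabgap1l and Chml were lost without WT replicate 1 (adjusted p = 0.090 and 0.098 by limma), and those of Rabgap1l, Chml and Eea1 without Tet2 KO replicate 1 (adjusted p = 0.067, 0.070 and 0.071) or 2 (adjusted p = 0.13, 0.15 and 0.080) and with scaling to the spike-ins (adjusted p = 0.061, 0.069 and 0.070). Other readers of Rab27 were looked at after the values were seen. Unc13d (Munc13-4), which primes granules for fusion, was at 48.6 and 49.5 TPM in WT and 55.2 and 57.4 TPM in Tet2 KO, and Sytl1 at 21.2 and 20.8 against 27.6 and 25.6 TPM. Sytl3 was lower, at 16.4 and 18.5 against 13.3 and 14.8 TPM. Without replicate 1 of Tet2 KO none of the last 3 was called (adjusted p = 0.082, 0.070 and 0.21 by limma), Unc13d and Sytl3 were not without replicate 2 of Tet2 KO (adjusted p = 0.13 and 0.087), Unc13d was not without WT replicate 1 (adjusted p = 0.059) and Sytl3 was not without WT replicate 2 (adjusted p = 0.14). The Rab27 effectors of melanocytes and endocrine cells Mlph, Exph5 and Myrip were at or below 0.10 TPM throughout.

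**Figure D4:**
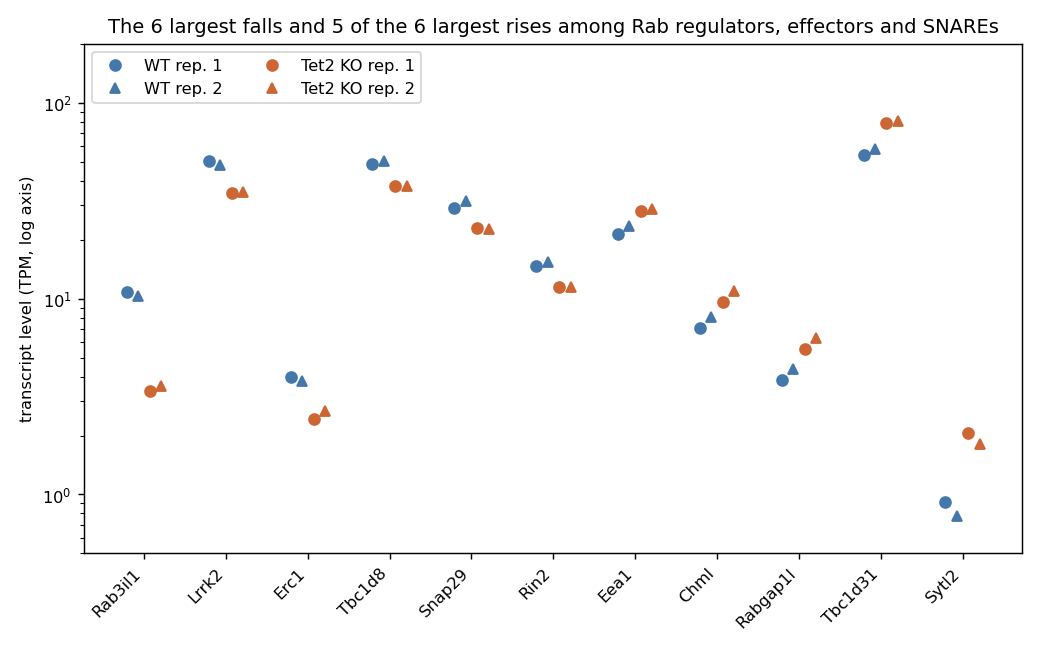
TPM (log axis) in each of the 4 libraries of the 6 genes with the largest fall (left) and 5 of the 6 with the largest rise (right) among called regulators, effectors and SNAREs of the Rabs. Rab3il1 drops from above 10 to below 4 TPM. Only called genes whose groups do not overlap could be shown, so the lack of overlap in all 11 follows from the choice.

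Marker genes of other cell types differed between the groups, in several lists in both directions. Of all genes tested, 18.9% were higher and 11.6% lower in Tet2 KO, beside which the counts below stand. All 15 markers of maturing neutrophils passed the test as lower in Tet2 KO, and their summed level was 47816 and 47182 TPM in WT and 24072 and 24386 TPM in Tet2 KO. Of 13 tested monocyte and macrophage markers 6 were lower and 2 higher, with sums of 1464 and 1483 against 1072 and 1041 TPM. Of 10 tested mast cell and basophil markers 6 were lower and 2 higher (Cpa3 and Kit), with sums of 2041 and 2122 against 2188 and 2127 TPM. That sum was mostly Cpa3, and the other 11 markers summed to 738 and 756 TPM in WT and 521 and 521 TPM in Tet2 KO. Of 4 tested eosinophil markers 3 were lower and 1 was higher (sums of 48.9 to 55.7 TPM). These sums were mostly Siglecf, the higher marker, at 31.8 and 36.0 TPM in WT and 47.6 and 45.9 TPM in Tet2 KO. Prg2, the most abundant of the 3 lower markers, stood at 13.7 and 14.7 against 0.93 and 1.46 TPM. Of 8 tested megakaryocyte markers 3 were lower and 2 higher (sums of 212 and 210.3 against 199 and 190.4 TPM). Of the markers called, Tpsab1 of mast cells and Ear2 of eosinophils reached the filter only in WT, and Gp5 of megakaryocytes only in Tet2 KO, so these 3 were tested only through the group where they are high. Of 5 tested lymphoid markers 4 were higher and 1 lower (144 and 146 against 234 and 231 TPM), the sum resting mostly on Thy1 and Nkg7. Only 2 of 11 erythroid markers (1 higher; 136 to 234 TPM, mostly Hbb-bt) and 2 of 11 stromal and endothelial markers (1 higher; 10.0 to 13.7 TPM) were tested. The part of these cell types in the changes of the Rab genes was not tested, and in bulk samples fewer cells of a type and less RNA per cell cannot be told apart.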

How the data were processed

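The TPM values of the 4 libraries were made by the authors and deposited as 1 table of 24589 entries, 92 of them ERCC spike-ins; the unit was read from the column sums. STAR, RSEM and the build mm10 are named for them in the processing notes of the submitters; versions, annotation and strand setting are not given in the sources used here, nor is depth, so no counting interval is given. Reads of near-identical genes may have been divided between copies.

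Spike-ins were dropped, a gene was tested if 2 or more libraries held it at 1 TPM or above (11837 genes), and log2(TPM + 1) was compared with limma 3.58.1 in R 4.3.3 with a variance trend and no replicate block. P-values are two-sided and adjusted by Benjamini-Hochberg over all genes kept, called under 0.05. All adjusted p-values come from limma. The fit had 2 residual degrees of freedom and a prior of 3.51.

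The Rab members, their roles and the lists were chosen with earlier results of these data known. Named in full are Rab27a, Rab27b, Rab3d, Rab44, called Rabs without overlap, the 3 most abundant Rabs, Tet2, and the 6 largest rises and falls among called regulators without overlap, of which 1 rise is not reported here. Coordinates come from GENCODE M21 (GRCm38).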

Additional observations from a re-analysis of the deposited data

How the results depend on the processing

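The sign of all 10 called Rab genes was the same in all 16 alternatives that could be computed for them, and 5 (Rab15, Rab27b, Rab32, Rab37 and Rab38) kept their call in each; Rab15 was not tested with a filter at 5 TPM. Of the 39 others, 33 were not called in any alternative. Lower Rab genes numbered 10 with trimmed-mean scaling. With spike-in scaling 634 genes and 3 regulators were higher, and with no filter 15 regulators were. Leaving out each library in turn gave 628 to 2190 higher and 602 to 1065 lower genes, 3 to 4 higher and 3 to 4 lower Rab genes, and 4 to 20 higher and 4 to 13 lower regulators; a lone library is assumed to vary like the other group. The cause was not tested. Of all calls 62.0% were higher, but 48.6% with trimmed-mean and 29.9% with spike-in scaling, which moved the median of all genes from 0.04 to -0.07; of Rab calls 40.0% were higher, but 28.6% and 30.0% with these, and 55.6% both with a filter at 5 TPM and with rescaling without spike-ins and 45S RNA.

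The deviations of same-numbered libraries from their group means correlated at -0.11 across genes. This rests on a single difference between libraries in each group, so it cannot tell whether the numbers pair the samples. With the replicate block 4 Rab genes were higher and 5 lower, and 1888 and 1183 of all genes. With the crossed pairing, chosen after seeing the data, 4 and 4 Rab genes and 2136 and 1327 of all genes were called.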
